A study of Mus musculus with 22 samples.

Results

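The genes described here are the SR proteins, the hnRNPs and the kinases that phosphorylate SR proteins. They were taken from the deposited count table by symbol: every protein-coding gene whose symbol starts with Srsf and a digit, with Hnrnp or with Srpk, together with Clk1, Clk2, Clk3, Clk4, Tra2a and Tra2b. The rule gave 40 genes of 39056 in the table: 11 SR proteins, 2 SR-like activators, 20 hnRNPs and 7 kinases. Of the 40, 39 passed the filter on low counts and were tested among 14072 genes. Srpk3, a kinase best known from muscle, did not pass and was near 0 in every library.

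The libraries were made from the prefrontal cortex (PFC) of 11 male mice of 8 to 12 weeks on a C57BL/6J background. Every mouse, Control included, carried the transgenes Tg(tetO-EGFP/Rpl10a)5aReij and Tg(CaMKIIα-tTA)1Mmay, so that a ribosomal protein fused to EGFP was made wherever the CaMKIIα promoter drove the transactivator. In translating ribosome affinity purification (TRAP) these tagged ribosomes and their RNA are pulled down, and total-RNA is RNA of the same lysate without the pull-down. Treatment lasted 4 days with 2 injections per day: saline in Control (n = 3), ethanol at 2 g/kg per day in EtOH (n = 4), and the same ethanol with the PARP inhibitor ABT-888 at 25 mg/kg on day 4 in EtOH + ABT-888 (n = 4). Tissue was taken 2 h after the last injection. Each mouse gave a TRAP and a total-RNA library, which makes 22 libraries in 6 groups.

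TRAP libraries held 6570957 to 22002618 counted reads (median 15711482) and total-RNA libraries 22132534 to 32421392 (median 28734687). Levels are given as CPM (counts scaled to library size) with TMM factors, and a gene is said to have risen or fallen where edgeR's quasi-likelihood test gave a Benjamini-Hochberg adjusted p under 0.05 over all 14072 genes. All 32 glial and vascular marker genes examined were lower in TRAP than in total-RNA of Control, with a summed level of 464 to 657 CPM against 4027 to 4340 CPM, and none was at 0 in TRAP. The label of excitatory neurons was not borne out by all of its markers: 5 of 6 excitatory markers were lower in TRAP than in total-RNA of Control, Camk2a did not pass the test (log2 fold change -0.17, adjusted p = 0.203), and the inhibitory markers Gad1, Gad2 and Slc32a1 were higher (1.24, 1.12 and 2.52 on the log2 scale), while Pvalb was lower (-2.36) and Vip (-0.997, adjusted p = 0.0960) and Sst (-0.06, adjusted p = 0.831) did not pass. The pool is therefore called TRAP here, for the RNA on tagged ribosomes. In bulk RNA, fewer cells of a type and less RNA per cell cannot be told apart.

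SR proteins bind short motifs in pre-mRNA, often in exons, and carry a domain of repeated arginine and serine that recruits the splicing machinery. Serines in that domain are phosphorylated by SRPK kinases, which act largely in the cytoplasm and favour entry into the nucleus, and by CLK kinases, which act in the nucleus and release SR proteins from speckles. hnRNPs coat nascent transcripts and often oppose SR proteins at the same exons, and many genes of these families regulate themselves through exons with premature stop codons or through retained introns that lower their own protein.

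The annotation of these genes lists transcripts of such kinds, which by itself does not show that the genes regulate themselves. In GENCODE release M21, 27 of the 39 tested genes (69.2%) had a transcript annotated to undergo nonsense-mediated decay, against 28% of 12986 protein-coding genes tested, and 30 (76.9%) had a transcript with a retained intron, against 57.9%. All 6 tested kinases had both kinds of transcript, and 9 of 11 SR proteins and 10 of 20 hnRNPs had a decay transcript. The genes had a median of 9 annotated transcripts, against 5, and a gene with more annotated transcripts has more chances to hold one of either kind. The counts used here add up all transcripts of a gene, so productive and unproductive forms were not separated.

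Between EtOH and Control, 5 of the genes were called in the same direction in TRAP and in total-RNA, as 3.09% of all genes were: Srsf5 and Clk4 were higher, and Srpk1, Srsf10 and Hnrnpa2b1 were lower. Sequences before a listed start of these genes are shown because a reader can compare them directly. RefSeq (GRCm38.p6) gives the 250 bases before the first listed start of each gene, and of these the longest unbroken stretch outside any UTR annotated by GENCODE is printed. This is 67 bases for Clk4 (chr11:51263047-51263113, plus strand), 250 for Srsf5 (chr12:80945249-80945498, plus strand), 250 for Hnrnpa2b1 (chr6:51469895-51470144, minus strand), 62 for Srpk1 (chr17:28622710-28622771, minus strand) and none for Srsf10, whose window lies within an annotated UTR of the gene. GENCODE starts Clk4 farther upstream, so that its stretch lies inside the gene as annotated there, while those of Srsf5, Hnrnpa2b1 and Srpk1 lie outside. Each line reads 5′ to 3′ on the strand of the gene, and capitals mark a cAMP response element (TGACGTCA), a GC box (GGGCGG) or a CCAAT box (CCAAT) on either strand, so that ATTGG and CCGCCC are matches on the other strand.
Clk4: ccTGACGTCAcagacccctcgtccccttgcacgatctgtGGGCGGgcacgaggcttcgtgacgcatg
Srsf5: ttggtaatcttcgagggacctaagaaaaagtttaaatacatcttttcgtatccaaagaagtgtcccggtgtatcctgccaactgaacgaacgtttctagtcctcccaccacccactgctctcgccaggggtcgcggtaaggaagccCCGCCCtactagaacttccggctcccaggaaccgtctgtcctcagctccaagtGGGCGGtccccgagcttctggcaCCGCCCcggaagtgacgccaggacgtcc
Hnrnpa2b1: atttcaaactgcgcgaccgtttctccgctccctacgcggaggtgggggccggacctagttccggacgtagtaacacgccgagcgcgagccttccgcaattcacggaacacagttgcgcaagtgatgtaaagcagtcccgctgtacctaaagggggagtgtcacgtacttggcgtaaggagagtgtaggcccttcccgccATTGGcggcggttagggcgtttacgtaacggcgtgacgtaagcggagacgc
Srpk1: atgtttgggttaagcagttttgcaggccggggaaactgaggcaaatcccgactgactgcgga

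Clk4 held 1 cAMP response element, which starts 65 bases before the listed start, and a GC box 28 bases before it. Srsf5 held 3 GC boxes, at 104, 51 and 28 bases, and an exon of the noncoding gene Gm20337 overlaps its window on the other strand. Hnrnpa2b1 held a CCAAT box at 51 bases, and none of these motifs lies in the stretch printed for Srpk1, whose GC box at 11 bases lies in the annotated UTR. The window of Srsf10 held 3 GC boxes and a CCAAT box. Over both strands of 32841 RefSeq promoter windows of this length, 1.55% held TGACGTCA, 32.7% GGGCGG and 33.9% CCAAT. Of the 37 genes described here that have a window, 2, 29 and 17 did. The 32841 windows leave out 1 chromosome and count each listed start of a gene, whatever its level. The 37 genes count once each, by the first listed start, so the 2 sets are not alike. The shorter TGACG, which TGACGTCA contains, was in the windows of Clk4, Srsf5, Hnrnpa2b1 and Srsf10, in 20 of the 37 and in 17.8% of the 32841. The heat shock pair GAANNTTC was in 3 of the 37 (6.7% of the 32841), the E-box CACGTG in 3 (6.02%) and TATAAA in 4 (12.4%). A match of letters is a description of the window only.

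Before treatment effects, the levels in Control give the scale. Per kilobase of all annotated exons of a gene, Hnrnpab, Hnrnpa2b1 and Hnrnpk led in Control_TRAP with means of 62.7 ± 7.37, 52.1 ± 5.25 and 49.3 ± 2.48 CPM per kb (SD, n = 3), and these hnRNPs are known to package or transport mRNA. Srsf5 was the highest SR protein at 32.4 ± 2.76 CPM per kb, and Srpk2, the SRPK known for its brain expression, was the highest kinase at 30.2 ± 2.12 CPM per kb. Srpk1 stood at 10.8 ± 0.980 CPM per kb, and the 4 CLK kinases were among the lowest, from Clk3 at 4.31 ± 0.575 down to Clk1 at 1.91 ± 0.358 CPM per kb. Most neighbours in this order overlapped: the libraries of only 5 of 39 neighbouring pairs in Control_TRAP and 10 of 39 in Control_total-RNA did not. In Control_total-RNA Hnrnpk led with 44.7 CPM per kb, followed by Hnrnpab with 38.1 and Hnrnpul2 with 33.3. The order depends on the length used. Over the longest transcript alone, Hnrnpk led in Control_TRAP with 107 CPM per kb, followed by Hnrnpa2b1 with 94.1, Hnrnpl with 85.7 and Hnrnpab with 73.6, and Srsf2 was above Srsf5 (45.2 against 37.1 CPM per kb), while Srpk2 was still the highest kinase.

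**Figure D1:**
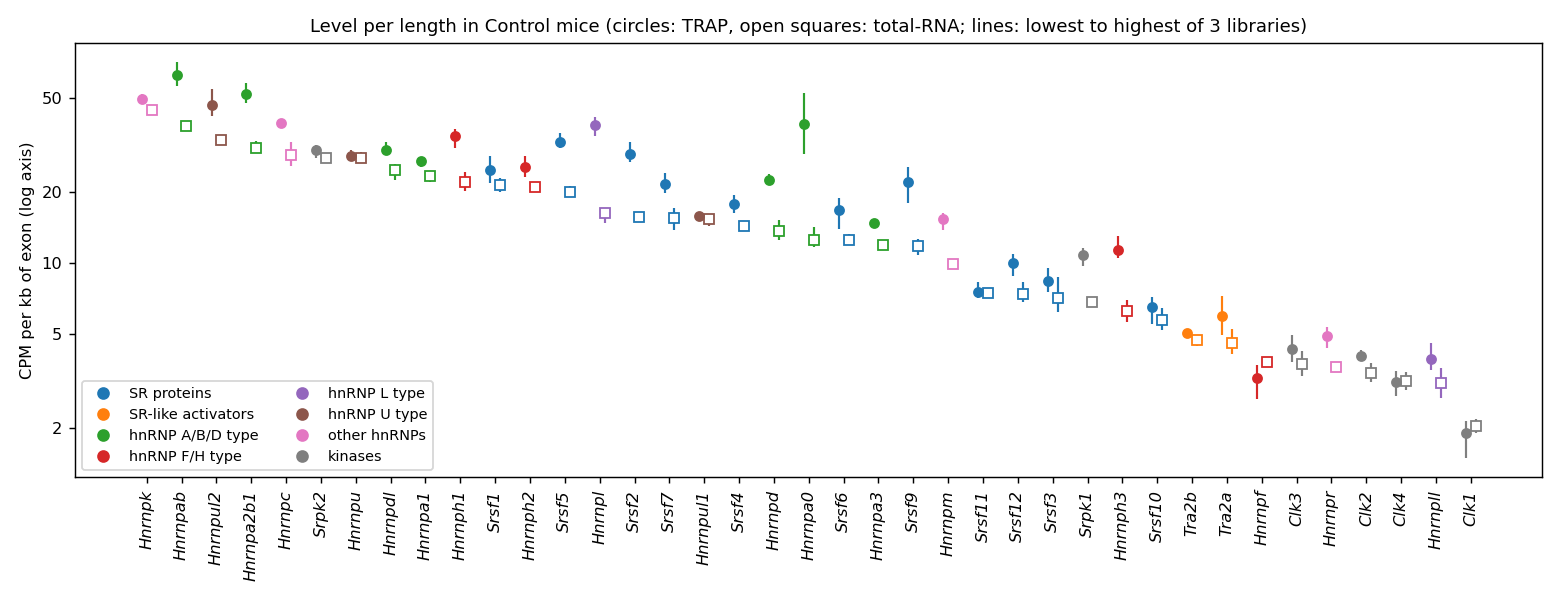
Mean level per kilobase of exon (CPM per kb, log axis) of the 39 tested genes in Control, as circles for TRAP and open squares for total-RNA, with lines from the lowest to the highest of 3 libraries and colours for gene families. Genes are ordered by their total-RNA level, Hnrnpk being first at 44.7 CPM per kb and Clk1 last, and circles lie above squares for 36 of the 39.

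Summed over all 40 genes, the level was 4802 ± 335 CPM in Control_TRAP, 4478 ± 459 in EtOH_TRAP and 4342 ± 454 in EtOH + ABT-888_TRAP (SD). In total-RNA the sums were 3599 ± 91.3, 3580 ± 209 and 3411 ± 473 CPM. The ranges of the 3 treatments overlapped in each pool. The median log2 fold change of EtOH against Control over the 39 genes was -0.10 in TRAP, against 0.02 over all genes tested, and -0.06 in total-RNA, against 0.0011.

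EtOH was compared with Control within each pool, which asks how ethanol given for 4 days shifted the RNA of these genes on tagged ribosomes and in the tissue. In TRAP, 2 of the 39 genes rose, Srsf5 and Clk4, where 2.77% of all genes were called higher, and 4 fell, Srpk1, Srsf10, Hnrnpc and Hnrnpa2b1, where 2.47% were called lower. In total-RNA, 6 rose, Srsf5, Clk4, Hnrnpa0, Srsf2, Hnrnpd and Clk1, where 9.04% of all genes did, and 8 fell, Srpk1, Hnrnph3, Srsf7, Srsf11, Tra2a, Srsf10, Hnrnpm and Hnrnpa2b1, where 8.6% did. The 5 genes called in both pools make up 5 of the 6 called in TRAP and 5 of the 14 called in total-RNA, and over all genes 435 of the 737 called in TRAP (59%) and of the 2482 called in total-RNA (17.5%) were called alike in both. The pools come from the same mice and are not independent. Libraries of EtOH and Control did not overlap for 4 genes that were higher and 10 that were lower in TRAP (10.4% and 11.9% of all genes), and for 6 and 7 in total-RNA (14.7% and 15.8%).

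The count of calls rested on few mice. In TRAP, leaving out Control_TRAP replicate 1, 2 or 3 left 2, 1 and 1 calls in place of 6, leaving out EtOH_TRAP replicate 1 or 2 left 3 each and replicate 3 left 4, and without EtOH_TRAP replicate 4 there were 8. In total-RNA the 14 calls became 5, 5 and 7 without Control_total-RNA replicate 1, 2 or 3. They became 9 and 8 without EtOH_total-RNA replicate 1 or 2, and 17 without replicate 4. Of the 14, only Srsf2, Srsf10 and Hnrnpm lost their call without EtOH_total-RNA replicate 3. Srpk1 was called in each of these fits in both pools, and in total-RNA so were Srsf5, Clk4 and Hnrnpa0. Others in total-RNA lost their call without 1 or 2 of the Control libraries only: Hnrnph3 without replicate 1, Srsf11 and Hnrnpd without replicate 1 or 2, and Srsf7 without replicate 2 or 3. A single fit over all 22 libraries called Srpk1 alone in total-RNA.

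**Figure D2:**
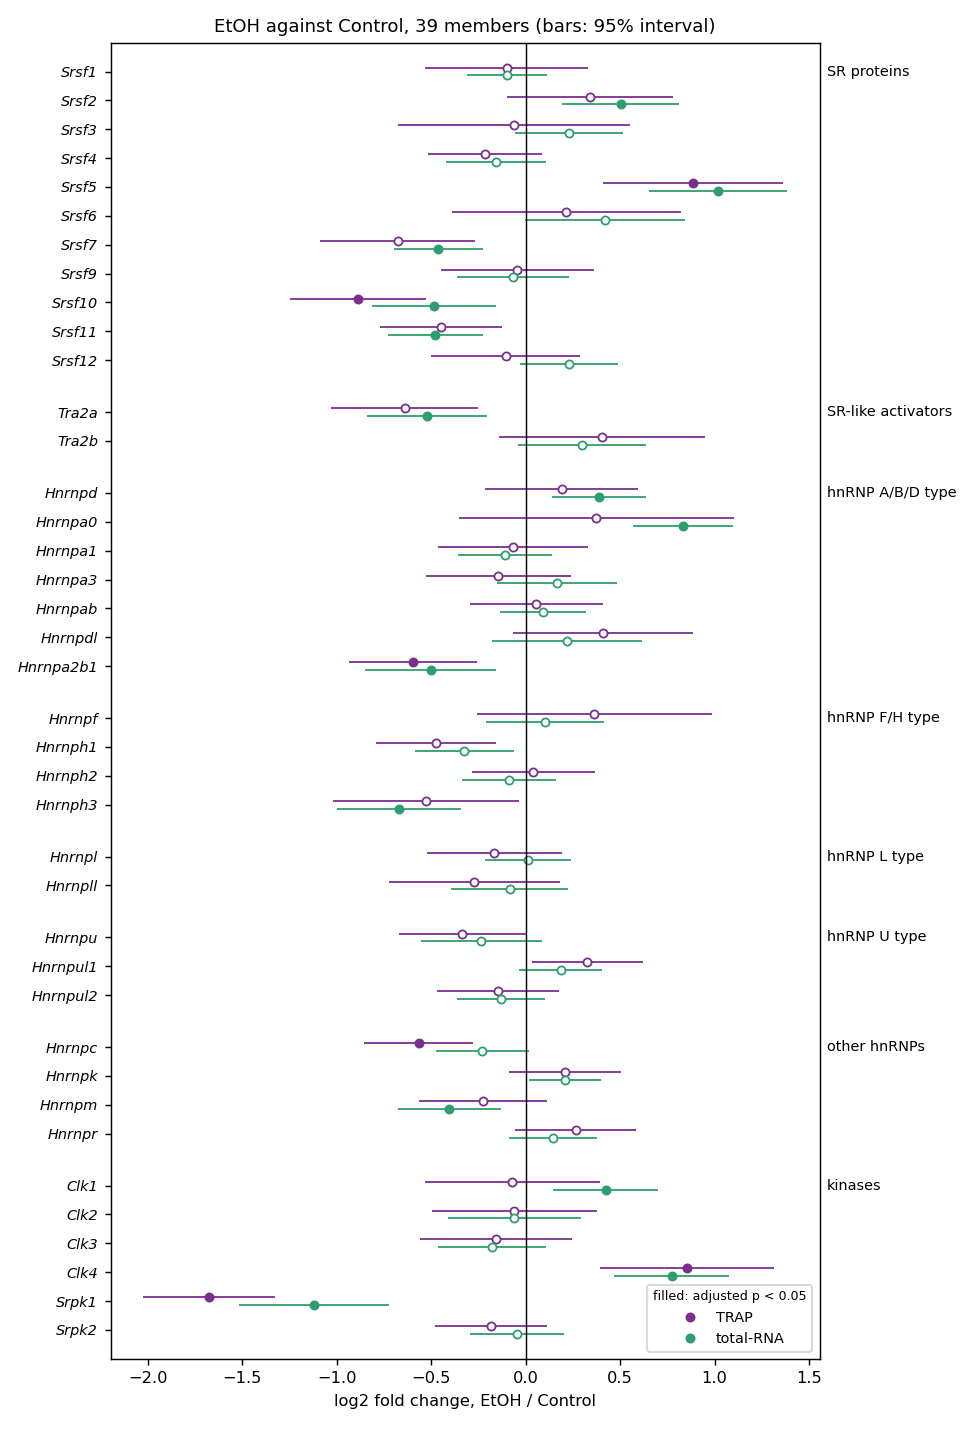
Log2 fold change of EtOH against Control (x axis) for each of the 39 tested genes, in TRAP (purple) and total-RNA (green), with 95% intervals as lines and filled circles where the adjusted p was under 0.05. Srpk1 lies farthest to the left in both pools and Srsf5 and Clk4 to the right, while most genes cross 0.

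Of the 6 tested kinases, 1 rose and 1 fell in TRAP, and 2 rose and 1 fell in total-RNA. Srpk1 (ENSMUSG00000004865.15, chr17:28587648-28622709, minus strand) had the largest change of all 39 genes in both pools. In TRAP it measured 137, 143 and 119.9 CPM in Control_TRAP, 41.2, 31.5, 45.6 and 46.8 in EtOH_TRAP and 68.6, 69.1, 27.96 and 58.3 in EtOH + ABT-888_TRAP. In total-RNA it measured 83.7, 84.7 and 85.95 CPM in Control_total-RNA, 39.03, 24.5, 40.9 and 51.4 in EtOH_total-RNA and 65.1, 55.6, 28.4 and 49.4 in EtOH + ABT-888_total-RNA. All EtOH libraries were below all Control libraries in both pools, and so were all EtOH + ABT-888 libraries. The level in EtOH was 0.313 of that in Control in TRAP and 0.460 in total-RNA, where the log2 fold change was -1.12 (SE 0.18, adjusted p = 0.00206). The call in TRAP had an adjusted p of 0.00221, and its log2 fold change lay between -1.75 and -1.57 when each library was left out in turn. Srpk2, the other SRPK tested, did not pass the test in either pool (-0.18 (SE 0.14, adjusted p = 0.455) in TRAP and -0.05 (SE 0.12, adjusted p = 0.81) in total-RNA).

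Clk4 (ENSMUSG00000020385.16, chr11:51261730-51281766, plus strand), a nuclear kinase of SR proteins, rose in both pools. In TRAP it measured 18.4, 20.2 and 15.8 CPM in Control_TRAP, 30.9, 27.3, 43.9 and 27.1 in EtOH_TRAP and 19.8, 30.5, 65.1 and 35.3 in EtOH + ABT-888_TRAP, a log2 fold change of EtOH against Control of 0.85 (SE 0.21, adjusted p = 0.0398). In total-RNA the levels were 16.8, 18.1 and 20.01 CPM in Control_total-RNA, 38.4, 28.7, 30.5 and 27.4 in EtOH_total-RNA and 16.2, 24.3, 39.6 and 25.4 in EtOH + ABT-888_total-RNA, with 0.77 (SE 0.14, adjusted p = 0.00384). The EtOH libraries were above every Control library in both pools. In TRAP the call was lost when any Control library, or EtOH replicate 1 or 3, was left out (log2 fold change 0.66 to 0.94), and in the single fit over all libraries.

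Clk1 (ENSMUSG00000026034.17, chr1:58410189-58424066, minus strand), the best studied CLK kinase, rose in total-RNA. Levels there were 16.5, 15.4 and 17.7 CPM in Control_total-RNA, 25.1, 21.1, 20.2 and 22.2 in EtOH_total-RNA and 17.1, 21.98, 23.6 and 21.2 in EtOH + ABT-888_total-RNA, a log2 fold change of 0.42 (SE 0.13, adjusted p = 0.0395), and the EtOH libraries did not overlap Control. In TRAP the levels were 12.2, 17.3 and 17.1 CPM in Control_TRAP, 13.8, 12.6, 14.6 and 17.5 in EtOH_TRAP and 19.1, 30.3, 10.8 and 26.5 in EtOH + ABT-888_TRAP, and the fold change of -0.07 (SE 0.21, adjusted p = 0.876) did not pass. The difference between the pools was -0.51 (95% interval -1.21 to 0.19) on the log2 scale and did not pass either. The call in total-RNA was lost when any Control library, or EtOH replicate 1 or 2, was left out, and also with library sizes alone (no TMM factors) and without the filter on low counts. Clk2 and Clk3 were not called in either pool, with log2 fold changes from -0.18 to -0.06.

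Of the 11 SR proteins, 1 rose and 1 fell in TRAP, and 2 rose and 3 fell in total-RNA. Srsf5 (ENSMUSG00000021134.17, chr12:80945504-80950507, plus strand), which binds exonic enhancers, had the highest rise. In TRAP it measured 123, 142 and 123 CPM in Control_TRAP, 193, 285, 304 and 158 in EtOH_TRAP and 96.2, 92.9, 336 and 121 in EtOH + ABT-888_TRAP. In total-RNA it measured 84.6, 79.7 and 75.9 CPM in Control_total-RNA, 142, 187, 204 and 115 in EtOH_total-RNA and 58.8, 63.2, 259 and 98.6 in EtOH + ABT-888_total-RNA. The EtOH libraries were above all Control libraries in both pools, and EtOH + ABT-888 replicate 3 stood above the other mice of its group in both. The log2 fold change of EtOH against Control was 0.89 (SE 0.22, adjusted p = 0.0397) in TRAP and 1.02 (SE 0.17, adjusted p = 0.00228) in total-RNA. The call in TRAP was lost when any Control library, or EtOH replicate 2 or 3, was left out, and in the single fit over all libraries.

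Srsf10 (ENSMUSG00000028676.17, chr4:135855747-135869908, plus strand), known as a splicing repressor when dephosphorylated, fell in both pools. TRAP levels were 38.6, 50.1 and 48.4 CPM in Control_TRAP, 24.2, 22.001, 27.7 and 23.7 in EtOH_TRAP and 38.9, 29.1, 22.001 and 28.3 in EtOH + ABT-888_TRAP, with a log2 fold change of -0.89 (SE 0.17, adjusted p = 0.014), and all EtOH libraries were below Control. Total-RNA levels were 36.2, 39.5 and 45.2 CPM in Control_total-RNA, 28.3, 24.1, 25.6 and 37.2 in EtOH_total-RNA and 36.9, 30.8, 23.4 and 35.7 in EtOH + ABT-888_total-RNA, with -0.49 (SE 0.15, adjusted p = 0.0436). There 1 EtOH library, replicate 4, lay within the range of Control, and the call was kept in 1 of 7 fits that left out a library and lost with library sizes alone. The difference between the pools did not pass the test, at -0.42 (95% interval -0.98 to 0.14).

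Srsf7 (ENSMUSG00000024097.10, chr17:80200080-80207307, minus strand), an SR protein with a zinc knuckle, fell in total-RNA with a log2 fold change of -0.46 (SE 0.11, adjusted p = 0.0139). Its total-RNA levels were 49.1, 54.9 and 60.6 CPM in Control_total-RNA, 43.3, 39.2, 39.5 and 37.2 in EtOH_total-RNA and 38.8, 26.9, 40.8 and 44.7 in EtOH + ABT-888_total-RNA. In TRAP they were 70.4, 85.4 and 74.1 CPM in Control_TRAP, 47.4, 53.9, 55.1 and 32.4 in EtOH_TRAP and 40.6, 30.8, 73.7 and 43.1 in EtOH + ABT-888_TRAP, and the difference of -0.68 (SE 0.19, adjusted p = 0.0584) just missed the threshold. EtOH libraries were below all Control libraries in both pools.

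Srsf11 (ENSMUSG00000055436.18, chr3:158010473-158036639, minus strand), a regulator known for neuronal microexons, fell in total-RNA with a log2 fold change of -0.48 (SE 0.12, adjusted p = 0.0152). It measured 61.2, 65.5 and 61.5 CPM in Control_total-RNA, 46.01, 37.7, 45.5 and 50.8 in EtOH_total-RNA and 43.6, 57.1, 38.3 and 48.4 in EtOH + ABT-888_total-RNA. TRAP levels were 60.8, 70.4 and 59.8 CPM in Control_TRAP, 52.6, 38.5, 47.2 and 46.3 in EtOH_TRAP and 52.5, 56.1, 26.7 and 51.7 in EtOH + ABT-888_TRAP, with -0.45 (SE 0.15, adjusted p = 0.101), which did not pass. Neither pool had an EtOH library within the range of Control.

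Srsf2 (ENSMUSG00000034120.18, chr11:116849901-116853094, minus strand) binds exonic enhancers and is also known to act in transcription elongation, and it rose in total-RNA (0.50 (SE 0.14, adjusted p = 0.0306)). The levels there were 45.99, 48.1 and 44.7 CPM in Control_total-RNA, 72.6, 72.8, 69.3 and 47.01 in EtOH_total-RNA and 42.9, 56.4, 71.9 and 58.1 in EtOH + ABT-888_total-RNA. EtOH replicate 4 lay among the Control libraries while the other 3 were above them, and the call was lost in 6 of the 7 fits that left out a library and kept without that one. In TRAP Srsf2 measured 78.9, 96.7 and 82.2 CPM in Control_TRAP, 116, 139, 101 and 72.5 in EtOH_TRAP and 72.99, 77.8, 111 and 70.5 in EtOH + ABT-888_TRAP, the groups overlapped, and the test was not passed (0.34 (SE 0.20, adjusted p = 0.335)). Exons of Srsf2 share 460 bases with Mettl23 and 288 with Mfsd11 on the opposite strand, and the strand setting of the counting is not given in the sources used here.

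The remaining SR proteins Srsf1, Srsf3, Srsf4, Srsf6, Srsf9 and Srsf12 were not called in either pool, with log2 fold changes from -0.21 (Srsf4 in TRAP) to 0.42 (Srsf6 in total-RNA). Of the SR-like activators, Tra2a (ENSMUSG00000029817.11, chr6:49243924-49264033, minus strand) fell in total-RNA with a log2 fold change of -0.52 (SE 0.15, adjusted p = 0.029). Its total-RNA levels were 28.5, 30.8 and 36.4 CPM in Control_total-RNA, 19.4, 19.3, 26.8 and 23.4 in EtOH_total-RNA and 26.1, 18.6, 30.8 and 21.9 in EtOH + ABT-888_total-RNA. TRAP levels were 34.3, 50.1 and 39.8 CPM in Control_TRAP, 24.9, 25.4, 30.7 and 23.8 in EtOH_TRAP and 42.6, 34.7, 33.9 and 21.99 in EtOH + ABT-888_TRAP, and -0.64 (SE 0.18, adjusted p = 0.0591) missed the threshold although no EtOH library reached the lowest Control library. The call in total-RNA was lost when any Control library, or EtOH replicate 1 or 2, was left out. Its paralog Tra2b had positive values that did not pass, 0.40 in TRAP and 0.30 in total-RNA.

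Of the 20 hnRNPs, none rose and 2 fell in TRAP, and 2 rose and 3 fell in total-RNA. Hnrnpa0 (ENSMUSG00000007836.6, chr13:58125879-58128556, minus strand), a gene of a single exon whose product binds AU-rich elements, had the smallest p of the family in total-RNA, with levels of 31.5, 31.4 and 37.97 CPM in Control_total-RNA, 65.1, 55.02, 53.6 and 65.4 in EtOH_total-RNA and 40.95, 32.3, 64.8 and 45.6 in EtOH + ABT-888_total-RNA. The log2 fold change was 0.83 (SE 0.12, adjusted p = 0.00114), and each EtOH library was above each Control library. In TRAP the levels were 93.9, 141 and 77.7 CPM in Control_TRAP, 105, 222, 137 and 66.03 in EtOH_TRAP and 79.5, 154, 169.7 and 68.04 in EtOH + ABT-888_TRAP, a wider spread in every group, and the difference was 0.37 (SE 0.34, adjusted p = 0.54). The interval of the difference between pools ran from -1.46 to 0.49.

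Hnrnpd (ENSMUSG00000000568.15, chr5:99955935-99978938, minus strand), known as AUF1 for its binding to AU-rich elements, rose in total-RNA, where it measured 96.8, 91.7 and 112 CPM in Control_total-RNA, 126, 121, 125 and 152 in EtOH_total-RNA and 101, 77.6, 132 and 117 in EtOH + ABT-888_total-RNA, without overlap of EtOH and Control, and its log2 fold change was 0.39 (SE 0.12, adjusted p = 0.0353). In TRAP it measured 160.0, 175 and 159 CPM in Control_TRAP, 159.6, 219, 225 and 136 in EtOH_TRAP and 117, 147, 216 and 136 in EtOH + ABT-888_TRAP, overlapping Control, with 0.19 (SE 0.19, adjusted p = 0.579). Exons of Hnrnpd share 385 bases with the antisense gene Gm17092.

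Hnrnpa2b1 (ENSMUSG00000004980.16, chr6:51460932-51469894, minus strand), which carries RNA into dendrites and binds exonic silencers, fell in both pools. TRAP levels were 313, 381 and 335 CPM in Control_TRAP, 177, 221, 256 and 239.6 in EtOH_TRAP and 299.7, 238, 219 and 199.5 in EtOH + ABT-888_TRAP, with a log2 fold change of -0.60 (SE 0.16, adjusted p = 0.0472). Total-RNA levels were 196, 193 and 216 CPM in Control_total-RNA, 96.9, 139, 169 and 164 in EtOH_total-RNA and 162, 121, 171 and 156 in EtOH + ABT-888_total-RNA, with -0.50 (SE 0.16, adjusted p = 0.0462). Every EtOH and every EtOH + ABT-888 library was below every Control library in both pools. The call was kept in 2 of 7 fits that left out a library in TRAP and in 3 of 7 in total-RNA.

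Hnrnpc (ENSMUSG00000060373.14, chr14:52073377-52104028, minus strand), which binds uridine tracts and keeps cryptic exons out, fell in TRAP, from 165, 167 and 176 CPM in Control_TRAP to 101, 115, 121 and 114 in EtOH_TRAP, with 142, 98.8, 139 and 96.6 in EtOH + ABT-888_TRAP. The log2 fold change of EtOH was -0.57 (SE 0.13, adjusted p = 0.0315), without overlap, and the call was lost when any Control library, or EtOH replicate 1 or 2, was left out. In total-RNA it measured 111, 118 and 141 CPM in Control_total-RNA, 98.1, 98.1, 109 and 117 in EtOH_total-RNA and 117, 71.3, 128 and 106 in EtOH + ABT-888_total-RNA, and the groups overlapped (-0.23 (SE 0.11, adjusted p = 0.176)).

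Hnrnph3 (ENSMUSG00000020069.16, chr10:63014664-63024217, minus strand), of the group that binds guanine runs, fell in total-RNA, where it measured 21.9, 17.8 and 19.7 CPM in Control_total-RNA, 12.2, 10.1, 12.7 and 14.7 in EtOH_total-RNA and 18.2, 12.6, 12.2 and 16.4 in EtOH + ABT-888_total-RNA. The EtOH libraries were below Control, and the log2 fold change was -0.67 (SE 0.15, adjusted p = 0.0114). In TRAP it measured 32.98, 40.99 and 33.7 CPM in Control_TRAP, 31.3, 16.7, 19.5 and 31.3 in EtOH_TRAP and 51.3, 32.3, 24.96 and 31.8 in EtOH + ABT-888_TRAP. That difference, -0.53 (SE 0.23, adjusted p = 0.187), did not pass although the EtOH libraries were below Control. Its exons share 115 bases with Rufy2 on the opposite strand. Hnrnph1 was lower in both pools without passing the adjusted threshold (-0.47 (SE 0.15, adjusted p = 0.0801) in TRAP, -0.32 (SE 0.12, adjusted p = 0.0823) in total-RNA), and Hnrnpf and Hnrnph2 had log2 fold changes between -0.09 and 0.36.

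Hnrnpm, another splicing factor, fell in total-RNA with a log2 fold change of -0.40 (SE 0.13, adjusted p = 0.0443), and its exons share 1169 bases with March2 on the same strand. Of the 7 fits that left out a library, the call was kept in 1, the one without EtOH replicate 4. The remaining 14 hnRNPs, among them Hnrnpk, Hnrnpl and Hnrnpu, were not called in either pool, and their log2 fold changes lay between -0.47 (Hnrnph1 in TRAP) and 0.41 (Hnrnpdl in TRAP).

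**Figure D3:**
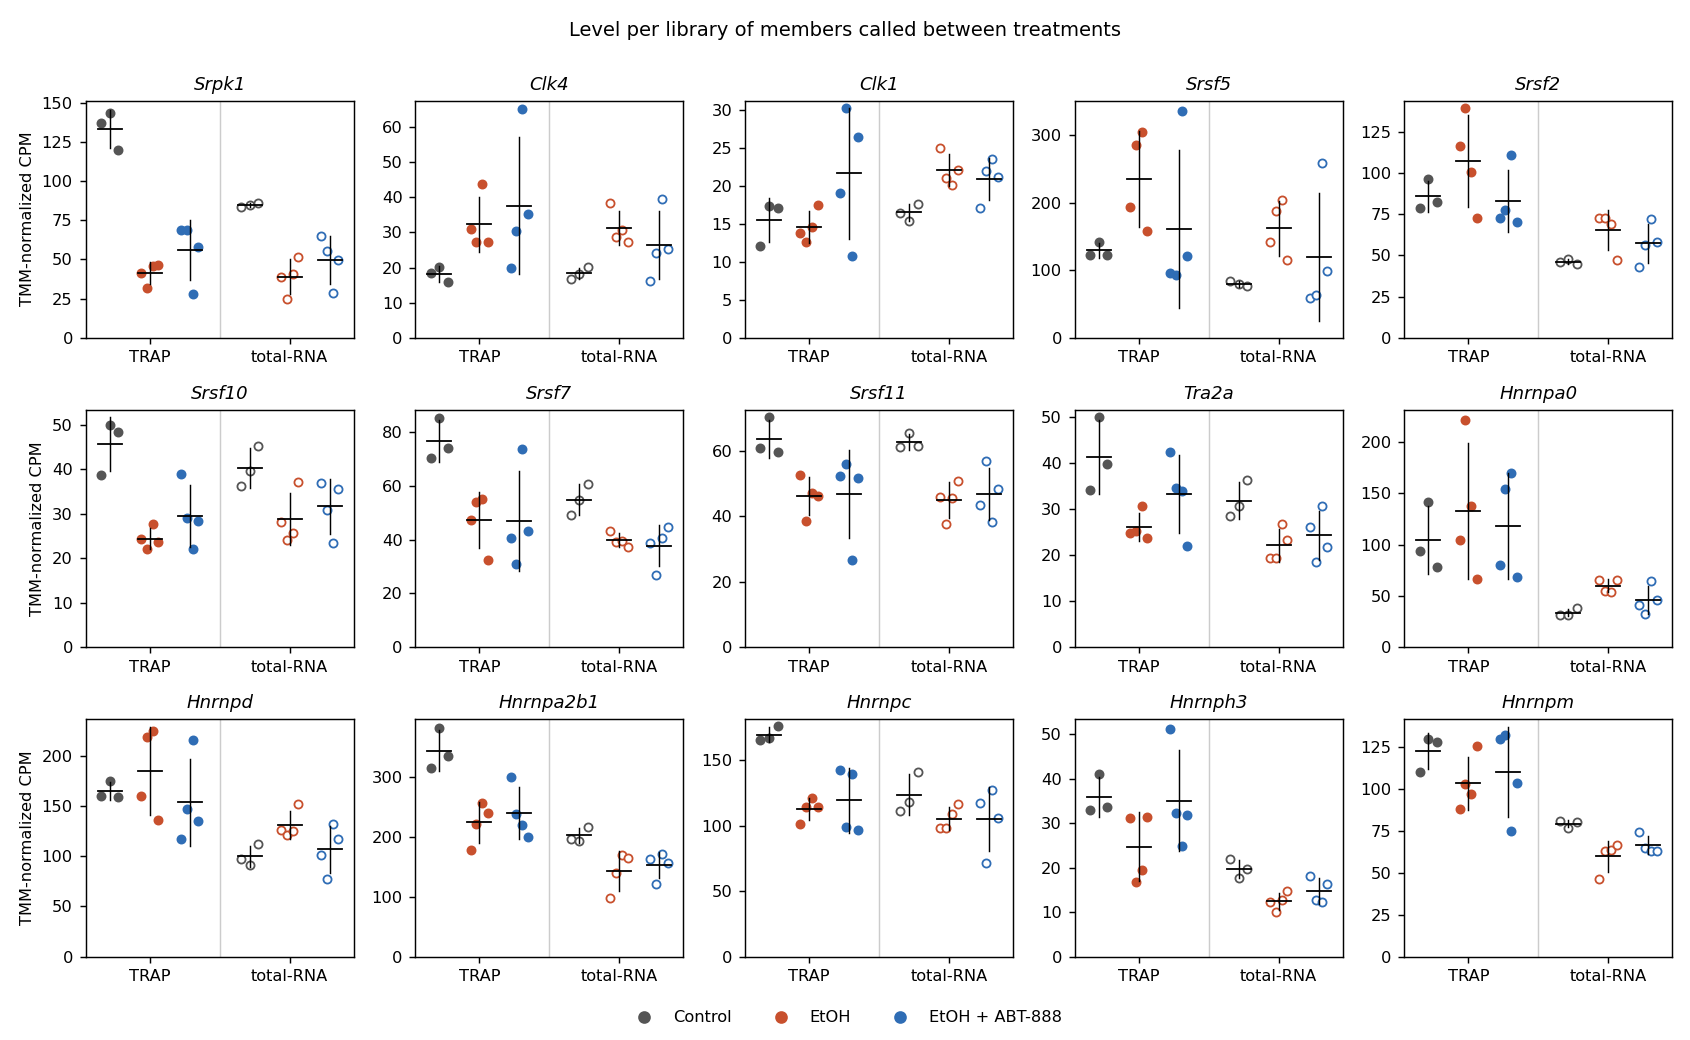
TMM-normalized CPM (y axis, from 0) in each library of the 15 genes called between treatments, by pool and treatment, with the mean as a horizontal line and the SD as a vertical line. Control libraries of Srpk1 stand apart from all others in both pools, and 1 EtOH + ABT-888 mouse lies far above its group for Srsf5.

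In total-RNA of EtOH, 6 of 8 microglial markers were lower than in Control, with a summed level of 149 to 232 CPM against 363 to 372 CPM. In TRAP the median log2 fold change of 6 excitatory markers with EtOH was -0.94 with 1 called lower. Their summed level overlapped, at 2494 to 3269 CPM in EtOH_TRAP against 2379 to 2643 CPM in Control_TRAP. Camk2a of this list went the other way without passing the test (0.47 (SE 0.13, adjusted p = 0.0541)). None of these markers was at 0 in any group. Their part in the changes above was not tested.

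The interaction of EtOH with the RNA pool, which asks whether the fold change differed between TRAP and total-RNA, called 0 of the 39 genes, where 0.0213% of all genes were called, by the quasi-likelihood test, and 0 by the likelihood ratio test and by DESeq2. None of the 39 had an unadjusted p under 0.05, as 4.87% of all genes did. The difference for Srpk1 was -0.57 (95% interval -1.37 to 0.23), for Hnrnpc -0.36 (95% interval -0.85 to 0.13) and for Clk4 0.06 (95% interval -0.81 to 0.94). A gene called in 1 pool alone is therefore not shown to differ between the pools.

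EtOH + ABT-888 was compared with the same Control libraries, so its differences share the controls of those of EtOH and are set beside them only. In TRAP, 0 of 39 genes were called by the quasi-likelihood test (0.185% of all genes were called higher and 0.291% lower), with 6 at an unadjusted p under 0.05 (12.1% of all genes), and exactTest called 1 and DESeq2 2. In total-RNA it was 0 of 39 (0.178% and 0.0853% of all genes), with 7 at an unadjusted p under 0.05 (15.9% of all genes), and exactTest and DESeq2 called 1 each. Libraries did not overlap for 1 gene that was higher and 5 that were lower in TRAP (6.23% and 7.75% of all genes), and for 1 and 5 in total-RNA (8.29% and 8.62%). The median log2 fold change was -0.10 in TRAP and -0.07 in total-RNA.

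The smallest p in both pools belonged to Srpk1, whose log2 fold change was -1.24 (SE 0.26, adjusted p = 0.0657) in TRAP and -0.77 (SE 0.22, adjusted p = 0.147) in total-RNA, beside -1.68 and -1.12 with EtOH alone. Clk4 had 1.08 (SE 0.34, adjusted p = 0.207) in TRAP and 0.53 (SE 0.25, adjusted p = 0.339) in total-RNA, and its EtOH + ABT-888 libraries ran from 19.8 to 65.1 CPM in TRAP. For Hnrnpa2b1 the values were -0.51 (SE 0.16, adjusted p = 0.226) and -0.40 (SE 0.13, adjusted p = 0.171), with all libraries below Control. Srsf7 had -0.69 (SE 0.25, adjusted p = 0.284) and -0.53 (SE 0.17, adjusted p = 0.171). Srsf5 had 0.34 (SE 0.38, adjusted p = 0.762) and 0.59 (SE 0.44, adjusted p = 0.546), where its EtOH + ABT-888 libraries lay on both sides of Control.

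Replicate 3 of EtOH + ABT-888 was the extreme mouse of its group for many of these genes: highest for Srsf5 and Clk4 and lowest for Srpk1 and Srsf10 in both pools, and lowest for Srsf11 in both. Without its TRAP library 2 genes were called against Control, Srpk1 and Srsf7, and without its total-RNA library 1, Srpk1. Without replicate 1, 2 were called in TRAP, Srpk1 and Clk4, and 1 in total-RNA, Srpk1. The count in the complete groups was 0 in both pools.

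Markers of cell types also differed between these groups. In TRAP of EtOH + ABT-888 the median log2 fold change against Control of 6 excitatory markers was -1.02 with 2 called lower, while their summed level overlapped (2207 to 3212 CPM against 2379 to 2643 CPM). The 8 oligodendrocyte markers had a median of 0.79 and a summed level of 328 to 1478 CPM against 350 to 456 CPM, and the 8 vascular markers had 0.82 and 18.9 to 42.3 CPM against 12.96 to 27.5 CPM, with 0 called in either list. In total-RNA the 8 microglial markers had a median of -0.67 with 0 called and a summed level of 155 to 299 CPM against 363 to 372 CPM. No marker was at 0 throughout a group, and their part in the values above was not tested.

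**Figure D4:**
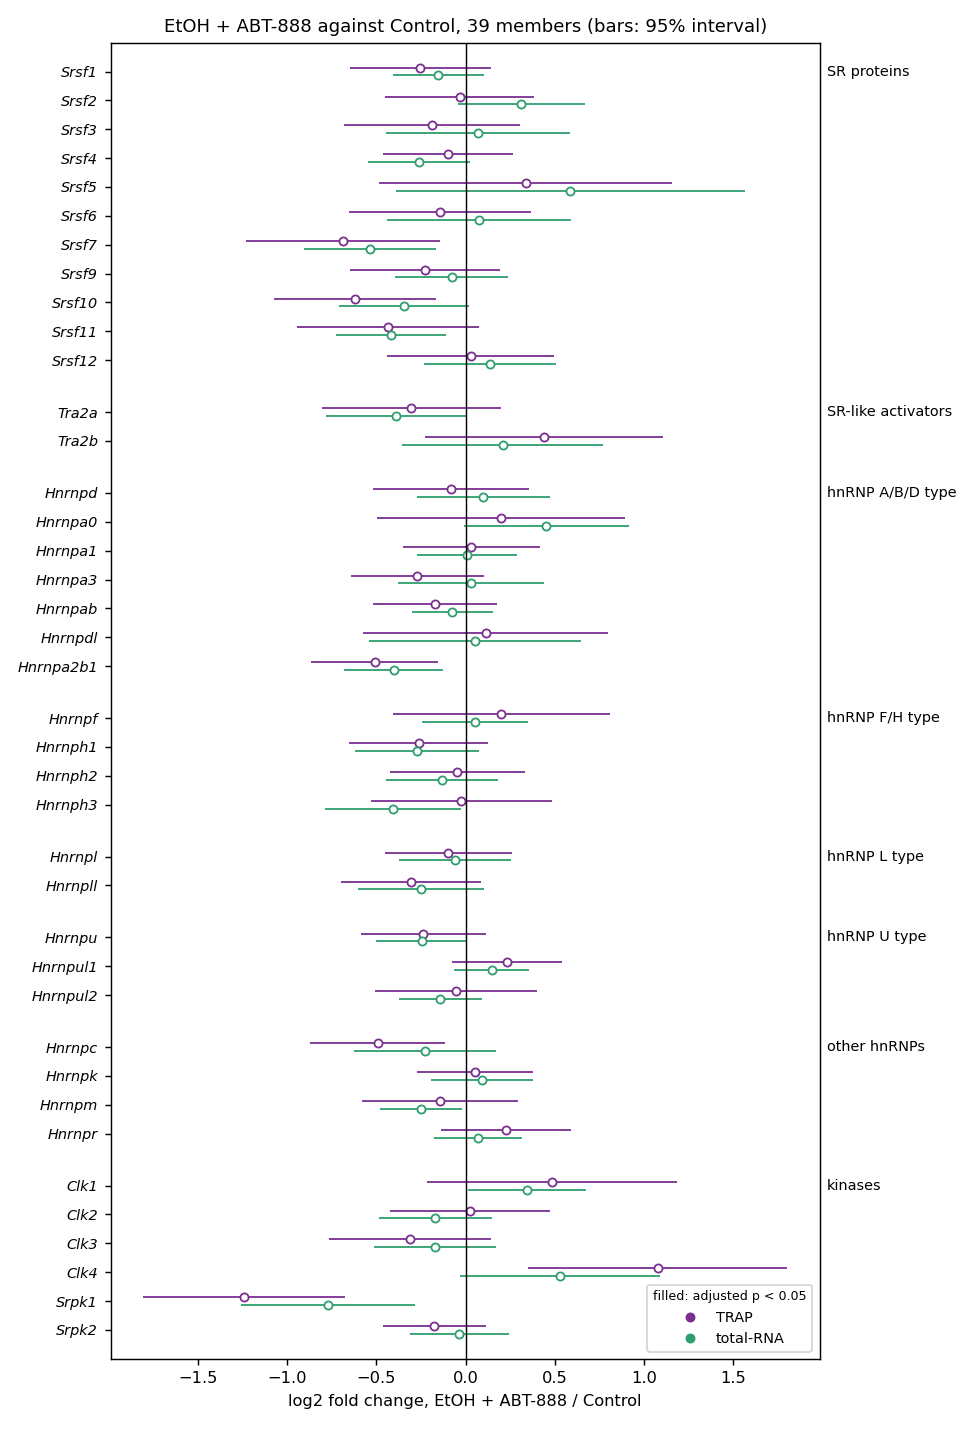
Log2 fold change of EtOH + ABT-888 against Control (x axis) for the 39 tested genes in TRAP (purple) and total-RNA (green), with 95% intervals as lines. No circle is filled, since no gene reached an adjusted p under 0.05, and the intervals of Srpk1 lie below 0 in both pools.

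EtOH + ABT-888 against EtOH is the comparison of the PARP inhibitor itself. It called 0 of 39 genes in TRAP and 0 of 39 in total-RNA, where 0% of all genes were called in either, and 0 of the 39 had an unadjusted p under 0.05, as 0.966% of all genes did in TRAP and 1.91% in total-RNA. exactTest and DESeq2 called 0 of the 39 in both pools. The intervals were wide: Srpk1 differed by 0.43 (95% interval -0.12 to 0.99) in TRAP and 0.35 (95% interval -0.20 to 0.90) in total-RNA. Srsf5 differed by -0.55 (95% interval -1.34 to 0.25) and -0.43 (95% interval -1.29 to 0.43), Clk4 by 0.23 (95% interval -0.44 to 0.89) and -0.25 (95% interval -0.74 to 0.25), and Hnrnpa0 in total-RNA by -0.38 (95% interval -0.78 to 0.02). Differences of this size were not detectable here, which does not show that both treatments gave the same levels.

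TRAP was compared with total-RNA within each treatment. In Control, 23 of the 39 genes were higher in TRAP, where 29.5% of all genes were, and 0 were lower, where 30.4% were. The same count of 0 lower was given by exactTest, by DESeq2 and at an unadjusted p under 0.05. A single fit over all 22 libraries called 13 genes in place of 23. The median log2 ratio of TRAP to total-RNA was 0.33, against 0.02 over all genes. In EtOH, 13 were higher (24.3% of all genes) and 1 was lower (26.5%), with a median of 0.20 against 0.03, and in EtOH + ABT-888, 12 were higher (19.5%) and 0 lower (21.5%), with a median of 0.32 against 0.05. With the mouse as a block, 24 genes were called in Control, 16 in EtOH and 18 in EtOH + ABT-888, where 62.5%, 58.8% and 54.3% of all genes were called in either direction.

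By family in Control, 14 of 20 hnRNPs, 7 of 11 SR proteins, 1 of 2 SR-like activators and 1 of 6 kinases were higher in TRAP. Within the hnRNPs these were 6 of 7 of the A/B/D type, 3 of 4 of the F/H type, 1 of 2 of the L type, 1 of 3 of the U type and 3 of the other 4. In EtOH it was 11 hnRNPs, 2 SR proteins and 0 kinases, and in EtOH + ABT-888 9 hnRNPs, 3 SR proteins and 0 kinases. Whether the ratio differed between Control and EtOH is the interaction above, which called none.

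Hnrnpl (ENSMUSG00000015165.16, chr7:28808541-28822266, plus strand), which binds CA repeats, had the smallest p. In Control it measured 234, 248 and 207 CPM in TRAP and 102, 88.1 and 102 in total-RNA. In EtOH it measured 163, 231, 231 and 179 and 95.9, 108, 99.2 and 88.9, and in EtOH + ABT-888 196, 221, 255 and 178 and 103, 79.6, 111 and 79.3. The pools did not overlap in any treatment, and the log2 ratio was 1.22 (SE 0.10, adjusted p = 1.59e-06) in Control, 1.02 (SE 0.14, adjusted p = 0.000144) in EtOH and 1.19 (SE 0.17, adjusted p = 0.000225) in EtOH + ABT-888.

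Hnrnpa0 had the largest ratio, 1.62 (SE 0.19, adjusted p = 2.14e-05) in Control, 1.13 (SE 0.28, adjusted p = 0.00591) in EtOH and 1.36 (SE 0.31, adjusted p = 0.00466) in EtOH + ABT-888. All its TRAP libraries in Control, 77.7 to 141 CPM, were above all those in total-RNA, 31.4 to 38.0 CPM. Of the SR proteins Srsf2 had the smallest p, with 0.88 (SE 0.10, adjusted p = 2.15e-05) in Control, 78.9 to 96.7 CPM against 44.7 to 48.1 CPM. Srsf9 (0.88), Hnrnph3 (0.85), Hnrnpa2b1 (0.75), Hnrnpd (0.70) and Hnrnpab (0.70) were also higher in TRAP of Control.

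Srpk1 was the kinase that was higher in TRAP of Control, at 0.64 (SE 0.09, adjusted p = 0.000111), and its ratio was 0.07 (SE 0.22, adjusted p = 0.823) in EtOH and 0.17 (SE 0.30, adjusted p = 0.692) in EtOH + ABT-888, neither of which passed. At the other end no gene was called lower in Control. The genes with negative ratios were Hnrnpf (-0.25 (SE 0.16, adjusted p = 0.201)), Clk1 (-0.09 (SE 0.15, adjusted p = 0.624)) and Clk4 (-0.03 (SE 0.14, adjusted p = 0.851)).

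Hnrnpf (ENSMUSG00000042079.13, chr6:117900324-117925622, plus strand) measured 10.4, 8.09 and 11.2 CPM in TRAP and 11.4, 11.4 and 12.02 in total-RNA of Control. In EtOH it measured 19.3, 8.59, 13.02 and 9.66 in TRAP and 12.8, 14.4, 11.8 and 10.8 in total-RNA, and in EtOH + ABT-888 13.4, 9.16, 14.1 and 8.22 and 12.4, 12.4, 12.3 and 11.1. The TRAP libraries were below those of total-RNA in Control, and the pools overlapped in the EtOH and EtOH + ABT-888 mice. In EtOH, Clk1 was lower in TRAP (-0.61 (SE 0.17, adjusted p = 0.00988)), the only gene of the family called in this direction in any treatment.

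**Figure D5:**
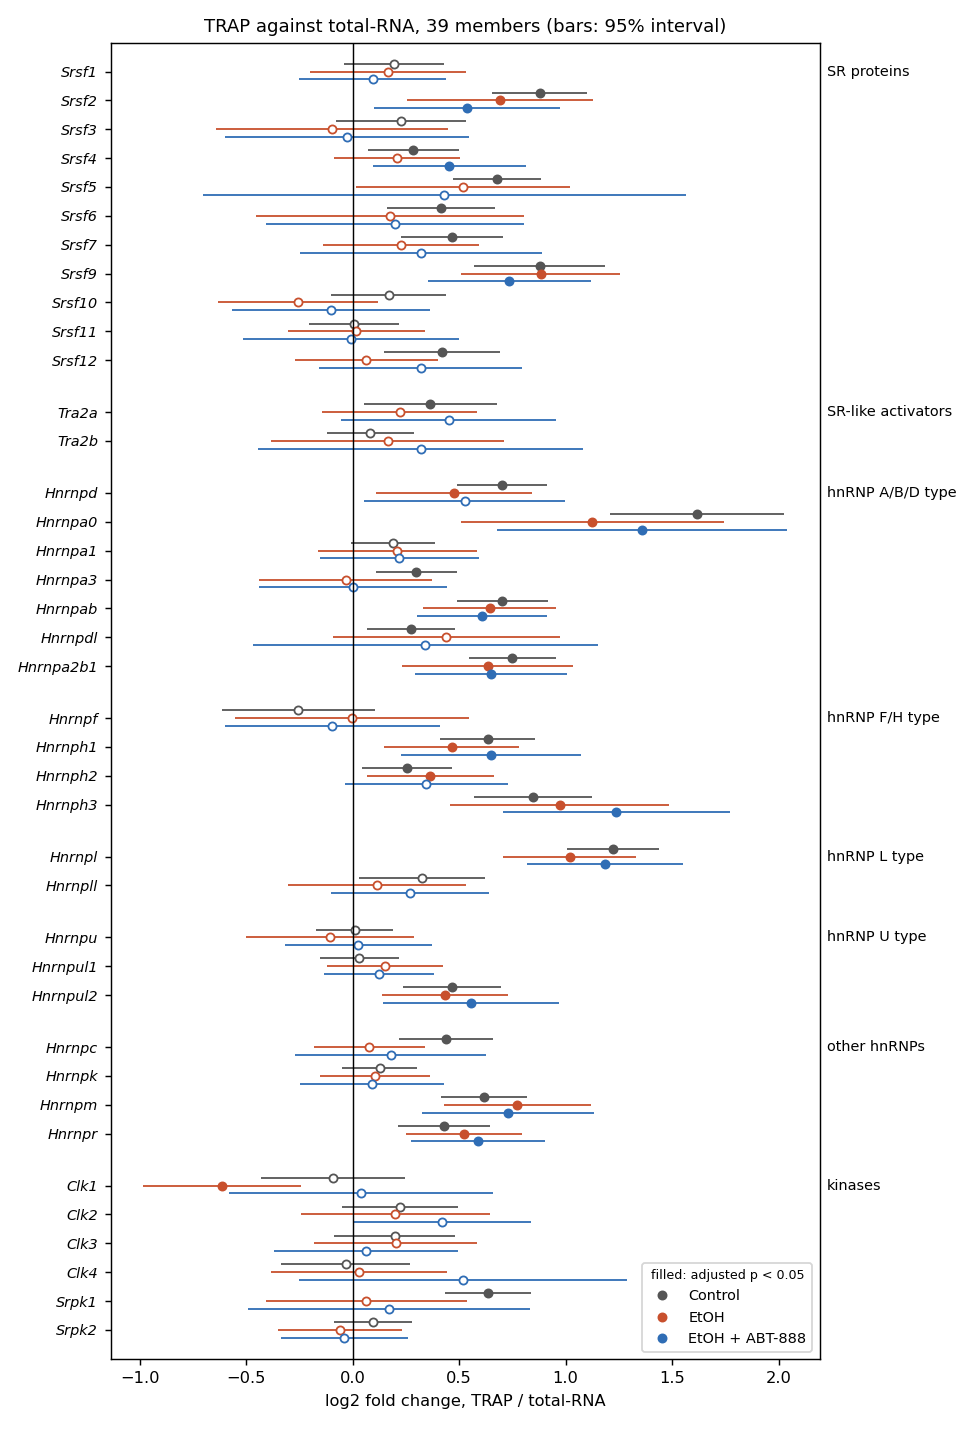
Log2 ratio of TRAP to total-RNA (x axis) for the 39 tested genes in Control (grey), EtOH (orange) and EtOH + ABT-888 (blue), with 95% intervals as lines and filled circles where the adjusted p was under 0.05. The hnRNPs lie mostly to the right of 0, with Hnrnpa0 farthest in each treatment, and of the kinases only Srpk1 in Control and Clk1 in EtOH have filled circles.

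Other splicing genes were examined in 4 lists. Of 25 SR-related proteins and other kinases of these domains, EtOH against Control called 0 higher and 4 lower in TRAP, where 2.77% and 2.47% of all genes were called, and 4 and 4 in total-RNA, where 9.04% and 8.6% were. In either direction these are 16% and 32% of the list, where 737 and 2482 of all 14072 genes were called. Srek1, an SR-related splicing regulator, fell in both, with log2 fold changes of -1.45 (SE 0.21, adjusted p = 0.00421) in TRAP and -0.95 (SE 0.19, adjusted p = 0.00597) in total-RNA. Rsrp1 also fell in both, with -0.99 (SE 0.23, adjusted p = 0.0293) and -0.71 (SE 0.18, adjusted p = 0.0176), and so did the kinase Prpf4b, with -0.71 (SE 0.18, adjusted p = 0.041) and -0.60 (SE 0.17, adjusted p = 0.0336). In TRAP, Luc7l, a protein of the U1 particle, fell with -0.84 (SE 0.17, adjusted p = 0.0189). In total-RNA Srrm1, a coactivator that bridges SR proteins, and Luc7l2 rose, with 0.73 (SE 0.12, adjusted p = 0.00197) and 0.54 (SE 0.13, adjusted p = 0.0131). The kinase Dyrk1a and Srrm2 also rose there, with 0.38 (SE 0.11, adjusted p = 0.0324) and 0.36 (SE 0.11, adjusted p = 0.0332), and Luc7l3 fell with -0.58 (SE 0.17, adjusted p = 0.0347). Prpf4b, Dyrk1a, Srrm2 and Luc7l3 were named after their values were seen, to complete the called genes of the list.

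Of 17 other hnRNP-class proteins, 1 rose and 2 fell in TRAP and 2 rose and 2 fell in total-RNA (17.6% and 23.5% of the list in either direction). Over all 14072 genes, 737 in TRAP and 2482 in total-RNA were called in either direction. Ewsr1 rose in TRAP with a log2 fold change of 0.79 (SE 0.14, adjusted p = 0.0122), and Tardbp, the gene of the protein TDP-43, fell in both pools, with -0.92 (SE 0.20, adjusted p = 0.0255) in TRAP and -0.48 (SE 0.16, adjusted p = 0.049) in total-RNA. Fubp1 also fell in both, with -0.86 (SE 0.19, adjusted p = 0.0279) in TRAP and -0.70 (SE 0.15, adjusted p = 0.00956) in total-RNA. In total-RNA Pcbp2 rose with 0.35 (SE 0.10, adjusted p = 0.0323).

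Of 34 neuronal and tissue splicing regulators 31 were tested. Of these, 0 rose and 1 fell in TRAP and 1 rose and 2 fell in total-RNA (3.23% and 9.68% in either direction). In either direction the test called 737 of all 14072 genes in TRAP and 2482 in total-RNA. Khdrbs3, a neuronal regulator of neurexin exons, fell in both, with log2 fold changes of -1.05 (SE 0.21, adjusted p = 0.0166) in TRAP and -0.64 (SE 0.11, adjusted p = 0.00233) in total-RNA. Rbm24 rose in total-RNA with 0.52 (SE 0.14, adjusted p = 0.0241) and Rbm10 fell with -0.44 (SE 0.14, adjusted p = 0.0473). Of 47 core spliceosome genes, 2.13% in TRAP and 10.6% in total-RNA were called in either direction, beside the same 737 and 2482 of all 14072 genes. In TRAP 1 rose, Snrpb, with 0.89 (SE 0.16, adjusted p = 0.0122), and 2 rose and 3 fell in total-RNA. There Snrpb rose with 0.52 (SE 0.15, adjusted p = 0.0292), Snrpa of the U1 particle fell with -0.53 (SE 0.11, adjusted p = 0.00767) and Sf3b3 of the U2 particle with -0.36 (SE 0.10, adjusted p = 0.023), and Sf1 rose with 0.32 (SE 0.10, adjusted p = 0.0422) and Dhx16 fell with -0.42 (SE 0.13, adjusted p = 0.0434), both named likewise. The median log2 fold change in TRAP was -0.07 for the SR-related list, 0.11 for the hnRNP-class list, -0.22 for the neuronal list and 0.21 for the core spliceosome, against 0.02 over all genes. In the comparisons of EtOH + ABT-888 with Control and with EtOH, the quasi-likelihood test called 0 genes of these lists in either pool, with 2 to 7 of a list at an unadjusted p under 0.05 against Control and 0 or 1 against EtOH, beside the shares of all genes at that threshold given above (12.1% in TRAP and 15.9% in total-RNA against Control).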

How the data were processed

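Libraries of TRAP and total-RNA from 11 mice were sequenced after depletion of ribosomal RNA. Per the labels, the authors aligned reads to mm10 with STAR, and they deposited raw counts per gene from featureCounts, without normalization. Versions, strand setting and the handling of reads that map to several places are not given in the sources used here, so levels of genes with near-identical copies are uncertain. All 22 columns were used.

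Members and lists were chosen with earlier results of these data known. Symbols, exons and overlaps came from GENCODE M21 (34299 identifiers matched exactly, 4573 without their version, 184 not found). The filter required 500 counts over all libraries and a count above 0 in 3 of them (24984 genes removed). The tests used edgeR 4.0.16 under R 4.3.3: TMM factors, glmQLFit and glmQLFTest on the groups compared (the interaction over all 22 libraries), and Benjamini-Hochberg adjustment over 14072 genes. CPM used factors over all libraries. The quasi-likelihood fit was run on simulated counts for EtOH against Control in each pool and for TRAP against total-RNA in EtOH. The other comparisons, the interaction and the mouse as a block were not covered. Libraries of a pair share a mouse by their animal number, and their deviations from the group means correlated in 11 of 11 pairs (r 0.142 to 0.698). Within groups, r of log2 CPM was 0.946 to 0.995 over 30 pairs, across genes. Values in every library are given for genes called between treatments (at most 14, by smallest p) and for the 3 with the smallest p in each direction between the pools of Control, and of each list at most 3 called genes per comparison were taken, by smallest p, and their values are given in both pools where called. Prpf4b, Dyrk1a, Srrm2, Luc7l3, Sf1 and Dhx16 were added after their values were seen. Alternatives were exactTest or the likelihood ratio test, DESeq2 1.42.0, RLE factors, library size alone, no filter, a single fit, an adjusted p under 0.01, the mouse as a block, and leaving out each library. Promoter windows and sequences came from RefSeq (GRCm38.p6). The values of 1 called gene of the hnRNP-class list are not reported here.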

Additional observations from a re-analysis of the deposited data

Results flagged for a closer look

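In groups of 4 libraries, 5 of 68 tested sets of values from 17 genes held a library far from the other 3 by Dixon's criterion, and chance alone gives about 1 in 20. Srsf5 was at 336 CPM in EtOH + ABT-888_TRAP replicate 3, against 92.9 to 121 in the others, and the total-RNA library of the same mouse was also the highest of its group at 259 CPM. Srsf11 was at 26.7 CPM in the same TRAP library, against 51.7 to 56.1. Srsf2 was at 47.0 CPM and Hnrnpd at 152 CPM in EtOH_total-RNA replicate 4, against 69.3 to 72.8 and 121 to 126. Hnrnpf was at 11.1 CPM in EtOH + ABT-888_total-RNA replicate 4, against 12.3 to 12.4.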

How the results depend on the processing

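For EtOH against Control in TRAP, 6 genes were called, 1 at an adjusted p under 0.01, and 1 to 8 when 1 library was left out. In total-RNA 14 were called, 4 at an adjusted p under 0.01, 1 in a single fit over all 22 libraries, which shares the spread of all groups, and 5 to 17 when 1 library was left out. Against Control, EtOH + ABT-888 called 0 genes in TRAP, but exactTest 1, DESeq2 2, no filter on low counts 2, a single fit 1, and leaving out a library 0 to 2. In total-RNA it called 0, but exactTest, DESeq2 and no filter 1 each, and leaving out a library 0 to 1. For TRAP against total-RNA in Control the single fit called 13 in place of 23, and in EtOH an adjusted p under 0.01 left 8 of 14. Where a p-value threshold alone was not the change, the cause was not tested.

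With the mouse as a block, the pairing of the libraries, 24, 16 and 18 genes were called between the pools in Control, EtOH and EtOH + ABT-888 in place of 23, 14 and 12, and 0 in the interaction. The values of Clk1 and Clk4 between the pools of Control changed sign, from -0.17 to 0.04 and from -0.12 to 0.07 over the fits that left out a library (0.0445 for Clk1 without Control_TRAP replicate 1, and 0.0679 and 0.0321 for Clk4 without Control_TRAP replicate 3 and Control_total-RNA replicate 3). Srpk1 kept its call in both pools under all 7 other settings and all 7 fits that left out a library. Srsf5, Clk4 and Hnrnpa0 in total-RNA lost theirs in the single fit alone (adjusted p = 0.273, 0.225 and 0.244). Over the longest transcript in place of all exons, 8 of the 10 highest genes per length in Control_total-RNA were the same. Groups held 3 or 4 mice and TRAP libraries were shallower than total-RNA libraries, and the part of depth in the spread was not tested.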
